A study of Mus musculus with 8 samples.

Results

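The genes described here are the mouse zinc finger genes whose symbol is Zfp followed by a number. Of 348 such protein-coding genes in the count tables, 277 reached a mean of 5 CPM (a gene's count scaled by the total of its library) over the 8 libraries, and 272 of these form the class described, because Zfp36, Zfp42, Zfp281, Zfp503 and Zfp951 were left out by name. Members were thus selected on their mean CPM over all libraries, and no fold change or p-value entered the limit itself. A gene that was low in some libraries can be inside through the others. The other 71 genes had a mean under 5 CPM. At the edge of this limit, Zfp273 (5.06 CPM) and Zfp963 (5.09 CPM) were inside, and Zfp970 (4.98 CPM) and Zfp628 (4.93 CPM) were outside. RNA came from E14 ESCs, a mouse embryonic stem cell line of 129/Ola origin grown without feeder cells. The cells were moved from serum medium with LIF to 2i, which is serum-free medium with LIF, the MEK inhibitor PD0325901 and the GSK3 inhibitor CHIR99021. They were collected 4, 16, 24 and 32 hr later, from 2i alone or from 2i with 17 µM vitC (vitamin C). Each of the 8 combinations is 1 library of 1 cell line, and no serum library was analysed here, so every time comparison is against 4 hr in 2i or between later times.

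Most proteins of this family bind DNA through tandem C2H2 zinc fingers, in which a pair of cysteines and a pair of histidines hold a zinc ion. A large group also carries a KRAB domain, which recruits the co-repressor Trim28 and with it the H3K9 methyltransferase Setdb1, and silences transposable elements and protects methylation at imprinted genes in ESCs. Other members lack KRAB and work as chromatin partners, developmental regulators, or RNA-binding and ribosome factors that share the name.

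A KRAB motif was found in the translated coding sequence of 154 members, and 118 had none by the rule used. The motif was called from at least 8 of 10 set positions in a window of 20 residues. This is a match of letters and not a curated domain annotation, so some members counted as without KRAB may carry the domain. Near misses with 6 or 7 matches were found in 5 of them (Zfp287, Zfp37, Zfp189, Zfp13 and Zfp213). Members with KRAB had a median of 12 fingers and those without had 8. In 6 members no C2H2 finger was found, and 9 had 1. Members with KRAB had shorter exon sequence (median 4156 against 5771 bases) with less GC (41.2% against 48.6%, where genes with at least 5 CPM had a median of 49.6%). They also lay close to others of their kind, since 118 of 154 had a neighbouring zinc finger gene against 31 of 118 without KRAB. A run of 50 bases, the read length, was shared with another gene over at least 10% of the sequence in 63 members, of which 43 had KRAB, and over at least 50% in 13 members. How reads from such shared stretches were assigned is uncertain.

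The start regions of the groups differed in CG content, the target of the DNA methylation that the wider study followed. RefSeq promoters (GRCm38.p6, 250 bases before to 50 after the start) were matched for 227 of the 272 members. The median number of CG dinucleotides in these 300 bases was 10 for the 136 members with KRAB and 19 for the 91 without, against 22 for 8330 protein-coding genes with at least 5 CPM and 7 for all 27025 promoters in the table. The letters CCAAT, read on both strands, were present in 58.8% of the promoters with KRAB, 41.8% of those without, 39.5% of those of protein-coding genes with at least 5 CPM and 37.9% of all promoters. The letters GGGCGG were present in 39.7%, 56.0%, 68.9% and 35.9%. The 250 bases before the start are printed for 5 members to show this range, with each CG in capitals. Zfp57, Zfp160 and Zfp809 have KRAB, Zfp319 and Zfp428 do not. Zfp57, Zfp319, Zfp160 and Zfp428 changed with time, and Zfp809 was among the members with the larger vitC differences.

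Zfp57, chr17:37003416-37003665, plus strand: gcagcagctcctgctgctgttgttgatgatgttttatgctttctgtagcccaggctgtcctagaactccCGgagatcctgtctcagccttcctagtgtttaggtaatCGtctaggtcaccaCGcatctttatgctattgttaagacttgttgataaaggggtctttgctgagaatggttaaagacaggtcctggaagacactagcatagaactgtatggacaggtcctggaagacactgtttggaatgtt
Zfp160, chr17:21008691-21008940, plus strand: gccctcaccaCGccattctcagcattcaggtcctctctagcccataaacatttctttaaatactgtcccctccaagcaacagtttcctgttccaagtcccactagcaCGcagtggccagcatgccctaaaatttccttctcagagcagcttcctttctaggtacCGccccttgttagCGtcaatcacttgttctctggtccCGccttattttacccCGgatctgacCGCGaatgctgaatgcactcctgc
Zfp809, chr9:22225453-22225702, plus strand: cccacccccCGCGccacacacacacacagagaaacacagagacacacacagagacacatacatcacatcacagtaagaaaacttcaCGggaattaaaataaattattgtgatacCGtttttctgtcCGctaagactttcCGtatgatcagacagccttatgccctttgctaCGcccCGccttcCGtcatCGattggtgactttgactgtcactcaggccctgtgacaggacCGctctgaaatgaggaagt
Zfp319, chr8:95331812-95332061, minus strand: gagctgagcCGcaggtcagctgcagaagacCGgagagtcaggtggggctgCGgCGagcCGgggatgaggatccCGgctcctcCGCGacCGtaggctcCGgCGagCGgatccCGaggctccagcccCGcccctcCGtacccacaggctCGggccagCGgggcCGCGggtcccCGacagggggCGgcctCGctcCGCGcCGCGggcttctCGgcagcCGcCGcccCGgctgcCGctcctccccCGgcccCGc
Zfp428, chr7:24506837-24507086, plus strand: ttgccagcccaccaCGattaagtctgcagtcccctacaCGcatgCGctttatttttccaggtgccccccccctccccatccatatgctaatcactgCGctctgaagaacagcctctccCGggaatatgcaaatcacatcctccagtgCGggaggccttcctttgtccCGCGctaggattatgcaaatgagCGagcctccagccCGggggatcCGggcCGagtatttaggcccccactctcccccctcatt

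These stretches held 3, 8, 11, 33 and 12 CG in the order printed. The promoter of Zfp57, which rose, was nearly without CG, and that of Zfp319, which also rose, was dense with it.

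**Figure D1:**
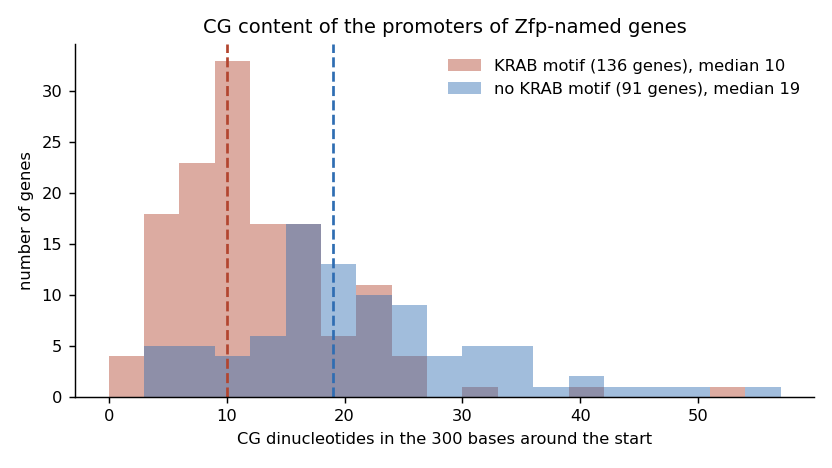
Histogram of the number of CG dinucleotides in the 300-base RefSeq promoter (horizontal axis) against the number of genes (vertical axis), for 136 members with KRAB and 91 without. The dashed lines mark the medians of 10 and 19, and the histogram with KRAB lies to the left of the other with an overlap between them. Zfp618 (59 CG, without KRAB) counts in the median but lies beyond the last bar and is not drawn.

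The libraries held 12940716 to 18434932 counts in 2i and 4753528 to 13157570 with vitC, the smallest being 2i+vitC at 24 hr. At 5 CPM that library gives 24 counts and a 95% Wilson interval of 3.39 to 7.51 CPM, and the 2i library at 16 hr gives 92 counts and 4.07 to 6.12 CPM, for counting error alone. Pluripotency markers (Pou5f1, Sox2, Nanog, Sall4 and Esrrb) summed to 1325 to 1503 CPM in all libraries, whereas primitive endoderm markers summed to 4.03 to 16.6 CPM and trophectoderm markers to 2.57 to 12.7 CPM. Fibroblast markers summed to 94.3 to 649 CPM, nearly all from Col1a1 and Col1a2, while Dcn did not exceed 3.03 CPM and Lum did not exceed 0.42 CPM. Features at Lars2 took 0.028, 0.21, 5.92 and 0.56% of the counts at 4, 16, 24 and 32 hr in 2i, and 0.011, 7.11, 6.37 and 4.21% with vitC. This share was lowest in both 4 hr libraries. The lane read from the deposited names was the same for 4 and 24 hr and the other one for 16 and 32 hr, so 16 hr and 32 hr against 4 hr cannot be told apart from a lane difference.

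Most members were expressed at a modest level, and the mean CPM of single members ran from 5.06 to 530. All 272 members had at least 1 CPM in every library, and the lowest single count was 12. The mean CPM had a median of 22.3 over the class (17.4 with KRAB, 29.9 without), against 38.1 for genes with at least 5 CPM, and 59 members reached 50 CPM. Per kilobase of exon the medians were 4.94 for the class and 8.98 for those genes. The highest levels per kilobase belonged to Zfp207, a spindle protein (79.6 CPM per kb), the KRAB gene Zfp568, which represses a placental promoter of Igf2 (48.6 CPM per kb), and Zfp428 (47.5 CPM per kb). Together the members took 1.01 to 1.06% of all counts in the 2i libraries and 1.02 to 1.14% with vitC. In bulk samples, fewer cells of a type and less RNA per cell cannot be told apart.

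The first comparison asked how vitC, a cofactor of TET dioxygenases and of histone demethylases, shifted these genes. The class as a whole hardly moved. Treatment and time were fitted together, and genes were called at an adjusted p of 0.05 (edgeR, quasi-likelihood, p-values adjusted after Benjamini and Hochberg over all genes). Of 272 members 0 passed, where 0.167% of the 14931 genes tested did (0.107% higher and 0.0603% lower). With the 5 genes left out by name put back, 1 passed (Zfp951), so the count of 0 depends on that omission. At an unadjusted p under 0.05 there were 37 members (13.6%) against 13.8% of all genes. DESeq2 called 2 members, both higher, where it called 2% of all genes (1.56% higher, 0.442% lower). The fit without a filter on low counts called 9, 8 of them higher, against 2.97% of all genes (2.04% higher, 0.936% lower). The median log2 fold change was 0.038 over the class, 0.050 with KRAB and 0.027 without, against -0.015 over all genes tested. The class median was 0.0098 without the 16 hr pair and 0.101 without the 32 hr pair. Without KRAB it was -0.0038 without the 16 hr pair and -0.00039 with the share of counts at Lars2 as a covariate. In the fit of all libraries the fold change was positive in 157 of 272 members (57.7%, against 47.2% of all genes), and in no member did it reach 1 in either direction. Because each combination is 1 library, the error in this fit is the departure from a common time course and not the spread between cultures.

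The shift by vitC was not the same at each time. Over the members, the median log2 ratio of vitC to 2i took the values 0.097, 0.103, 0.059 and -0.082 in order of time. Members with KRAB had medians of 0.168, 0.111, 0.087 and -0.128, each further from 0 than those of members without, which were 0.027, 0.081, 0.028 and -0.032. Over all genes tested the medians were 0.0070, -0.022, -0.018 and 0.0015. A ratio above 0 was found in 171, 168 and 157 of 272 members at 4, 16 and 24 hr and in 100 at 32 hr. These are 62.9, 61.8, 57.7 and 36.8% of the members, against 51.2, 48.0, 48.2 and 50.2% of all genes tested. Thus the class was on the higher side with vitC at the first 3 times and on the lower side at the last.

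**Figure D2:**
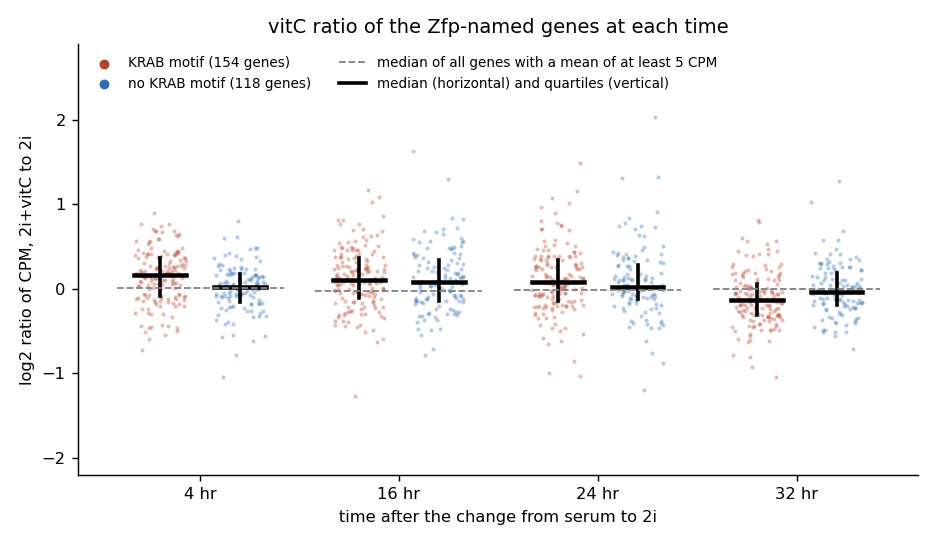
Log2 ratio of CPM with vitC to CPM in 2i (vertical axis) for each member at 4, 16, 24 and 32 hr, with members with and without KRAB drawn apart. Horizontal bars are medians, vertical bars span the quartiles and dashed lines are the medians of genes with at least 5 CPM. The median with KRAB goes from 0.168 at 4 hr to -0.128 at 32 hr, and the points of the groups overlap at each time.

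Counted member by member, 34 (12.5%) were higher with vitC at all 4 times, against 11% of all genes, and 19 (6.99%) were lower at all 4, against 10.7%. The pattern of higher at 4, 16 and 24 hr and lower at 32 hr was found in 45 members (16.5%), 34 of them with KRAB, against 6.1% of all genes. The same 4 pairs of libraries stand behind every member, so these members are not independent. After each library was corrected for GC and length of the genes, the KRAB medians were 0.087, 0.112, 0.033 and -0.087, which kept their signs. Those without KRAB were -0.008, 0.055, -0.007 and -0.049, so the sign at 4 and 24 hr turned, and the class median at 24 hr came to 0.0072. The test of a linear change of the vitC effect with hours called 0 members by edgeR and 0 by DESeq2, with 8 at an unadjusted p under 0.05, and 0% of all genes (2.89% unadjusted).

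The size of the ratio also went with shared sequence. Among members with KRAB that shared under 10% of their sequence with other genes the medians were 0.132, 0.084, 0.037 and -0.113, and among those that shared more they were 0.256, 0.208, 0.143 and -0.248. In the group of 8 neighbouring KRAB genes from Zfp988 to Zfp933, where the median shared part was 40.8%, the median ratios were 0.49, 0.63, 0.41 and -0.42. Within it, Zfp933 had 16.0, 14, 14.6 and 16.6 CPM in 2i at 4, 16, 24 and 32 hr and 26.8, 22.0, 19.1 and 11.4 CPM with vitC. Zfp978 had 5.17, 5.59, 4.40 and 9.26 CPM in 2i and 9.20, 11.2, 12.6 and 8.24 CPM with vitC. Both were higher with vitC until 24 hr and lower at 32 hr, and this group and these genes were chosen after their values were seen. The larger neighbouring group from Zfp677 to Zfp40, with 17 KRAB genes, had medians of 0.18, 0.22, 0.23 and -0.13. The part of shared reads in these ratios was not tested.

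Among the KRAB repressors of known function, Zfp809, which binds the proline-tRNA primer binding site of retroviruses, showed the largest difference with vitC. It had 13.5, 13.6, 13.8 and 14.1 CPM in 2i at 4, 16, 24 and 32 hr and 15.7, 23.1, 27.1 and 19.8 CPM with vitC. The vitC libraries were higher at each time and the groups did not overlap. Its log2 fold change of 0.60 ± 0.17 (SE) had an adjusted p of 0.12 in edgeR, with a range of 0.021 to 0.96 over other settings. Zfp932 and Zfp708, both repressors of retroelements, were near the expression limit. Zfp708 had 4.42, 6.67, 5.49 and 7.13 CPM in 2i and 5.55, 5.17, 5.89 and 5.72 CPM with vitC, so its groups overlapped. Zfp932 had 6.49, 6.56, 6.10 and 5.73 CPM in 2i and 12.6, 6.60, 7.99 and 5.72 CPM with vitC, so that it stood apart at 4 hr and was level at 16 and 32 hr. The imprint protectors Zfp57 and Zfp445 showed little vitC difference (Zfp57 by -0.04 ± 0.10 on the log2 scale, adjusted p = 0.91 by edgeR).

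Zfp462, Zfp609 and Zfp703 are members without KRAB named for their function or for their change with time. They had the largest rises in the vitC log2 fold change among the members printed, and none of them passed. Zfp462, a heterochromatin factor that works with the H3K9 methyltransferases G9a and GLP, had 34.5, 42.5, 59.0 and 56.9 CPM in 2i and 34.9, 102, 111 and 77.7 CPM with vitC. It was level at 4 hr and higher with vitC at the other times, and its log2 fold change was 0.66 ± 0.17 with an adjusted p of 0.11 in edgeR. Zfp609, a partner of the cohesin loader Nipbl and of the Integrator complex, had 10.7, 13.4, 20.5 and 16.5 CPM in 2i and 9.80, 40.3, 51.3 and 22.4 CPM with vitC (log2 fold change 0.83 ± 0.24, adjusted p = 0.15 by edgeR). Zfp703, a transcriptional co-repressor, had 2.30, 6.73, 8.42 and 4.26 CPM in 2i and 1.06, 11.8, 34.7 and 10.8 CPM with vitC (0.99 ± 0.35, adjusted p = 0.23 by edgeR). All 3 were close to or below the 2i level at 4 hr and above it afterwards.

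Without the pair of 4 hr libraries these 3 genes passed the edgeR test, with log2 fold changes of 0.89 (Zfp462, adjusted p = 0.015), 1.14 (Zfp609, 0.019) and 1.43 (Zfp703, 0.012). Zfp809 (0.75, adjusted p = 0.045) and Zfp229 (0.55, adjusted p = 0.035) passed as well, 5 members in all, each of them higher, against 2.67% of all genes (2.13% higher, 0.542% lower). Zfp229 was named after its value was seen. The adjusted p over the other settings ranged from 1.6e-05 to 0.98 for Zfp462 and from 7.7e-05 to 0.97 for Zfp609. DESeq2 called Zfp462 and Zfp609. Zfp142 was higher with vitC at all 4 times, with 26.2, 26.5, 24.1 and 20.4 CPM in 2i and 35.9, 34.0, 42.9 and 26.7 CPM with vitC (0.50 ± 0.13, adjusted p = 0.11 by edgeR).

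On the lower side, Zfp937 had 6.61, 5.26, 6.95 and 7.64 CPM in 2i and 4.64, 2.01, 4.84 and 3.70 CPM with vitC. Every vitC value was below every 2i value, and the log2 fold change was -0.85 ± 0.24 with an adjusted p of 0.13 in edgeR. Its vitC values all lay under the limit of 5 CPM and its 2i values all above it. It thus entered the class through its 2i values, and the gap between the media is in part set by that limit. Zfp688 had 14.3, 16.8, 13.8 and 20.9 CPM in 2i and 10.3, 10.5, 9.89 and 15.1 CPM with vitC (-0.53 ± 0.15, adjusted p = 0.14 by edgeR), and its groups overlapped through the 32 hr value. Zfp974 followed with -0.63 ± 0.21 (adjusted p = 0.21 by edgeR). The log2 fold changes of the other members among the 8 largest rises and 5 largest falls of one sign at all 4 times were 0.58 for Zfp992, 0.52 for Zfp619, 0.50 for Zfp11, 0.47 for Zfp827, 0.45 for Zfp981 and 0.44 for Zfp384, and -0.44 for Zfp637 and -0.35 for Zfp456, with adjusted p of 0.20 to 0.47 in edgeR. Of the genes left out by name, Zfp951 had 4.65, 2.77, 3.09 and 2.94 CPM in 2i and 7.83, 9.04, 10.3 and 13.3 CPM with vitC, and was called (1.57 ± 0.26, adjusted p = 0.040 by edgeR).

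The second comparison asked what happened to the class between 4 and 24 hr in 2i medium, over both treatments and within a lane. Here single members changed while the median stayed near 0. By edgeR, 33 of 272 members (12.1%) passed, 23 up and 10 down, where 20.5% of all genes did (11.5% up, 8.98% down) and 24.8% of genes with at least 5 CPM did, and the median log2 fold change was 0.032 against 0.0076 for all genes. With the 5 genes left out by name put back, 36 passed, 25 up and 11 down. The calls within the class fell unevenly. Members without KRAB gave 27 of the 33 (27 of 118, 22.9%), a share near that of all genes, and members with KRAB gave 6 of 154 (3.90%). The medians were 0.068 and -0.0056, and the median SE of the fold change was 0.193 and 0.225. At 5 to 50 CPM, 5 of 136 members with KRAB and 17 of 77 without passed, against 22.4% of all genes at that level, and at 50 CPM or more 1 of 18 and 10 of 41 passed, against 28.2%. A log2 fold change of 1 or more in size was reached by 1 member with KRAB and 13 without. The difference between the groups was not tested. Corrected for GC and length, 39 members passed, 21 up and 18 down, of which 12 had KRAB, against 20.7% of all genes (9.32% up, 11.4% down). DESeq2 called 31, 20 up and 11 down, against 19.4% (10.9% up, 8.44% down). The 2i and vitC changes shared their sign in 201 of 272 members (73.9%), 68.8% with KRAB and 80.5% without, against 77.2% of genes with at least 5 CPM.

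**Figure D3:**
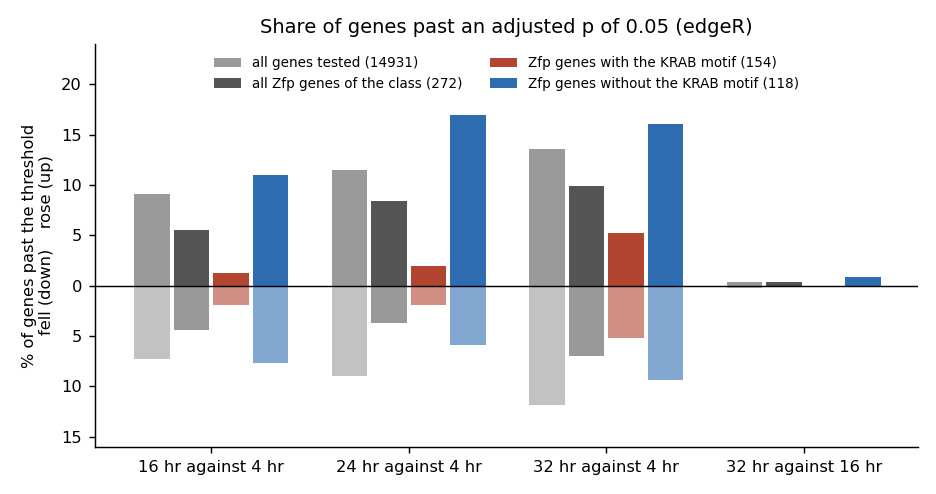
Percent of genes that passed the edgeR test in each comparison of times, with rises drawn up from 0 and falls drawn down, for all 14931 genes tested, the 272 members, and the members with and without KRAB. For 24 hr against 4 hr the rises and falls together make 20.5, 12.1, 3.90 and 22.9%.

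Zfp57, which keeps methylation at imprinted control regions through Trim28, rose. It had 66.4, 90.0, 121 and 121 CPM at 4, 16, 24 and 32 hr in 2i and 64.2, 93.3, 113 and 118 CPM with vitC. Both series rose from 4 to 24 hr and then stayed level, with a log2 fold change at 24 hr of 0.86 ± 0.14 (adjusted p = 0.0013 by edgeR). At 32 hr it was 0.87 ± 0.13 above 4 hr (adjusted p = 0.00082 by edgeR). Zfp445, the other imprint protector, had 90.6, 66.0, 77.4 and 77.4 CPM in 2i and 89.2, 82.6, 83.7 and 68.2 CPM with vitC, and did not pass (-0.13 ± 0.16, adjusted p = 0.59 by edgeR). Zfp568 had 432, 346, 326 and 344 CPM in 2i and 417, 321, 325 and 347 CPM with vitC. It was highest at 4 hr in both treatments, and its log2 fold change at 24 hr was -0.36 ± 0.13 (adjusted p = 0.069 by edgeR). Of the 7 KRAB genes listed for repression of imprints and retroelements, 1 passed at 24 hr, Zfp57, where 20.5% of all genes did.

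The other KRAB calls were Zfp128 and Zfp982, which rose, and Zfp52, Zfp160 and Zfp707, which fell. The calls of Zfp128 and Zfp982 lay at the threshold (adjusted p = 0.048 and 0.0497 by edgeR), and both were lost with DESeq2, library totals, thinned counts or no treatment term. Zfp52 had 18.6, 11.1, 8.73 and 8.97 CPM in 2i and 17.0, 7.89, 10.5 and 7.06 CPM with vitC, with both 4 hr values above all later ones (-0.88 ± 0.25, adjusted p = 0.028 by edgeR). Zfp160 had 48.5, 27.8, 32.4 and 21.9 CPM in 2i and 67.3, 29.8, 31.1 and 24.0 CPM with vitC. It was -0.81 ± 0.17 at 24 hr (adjusted p = 0.0072 by edgeR) and -1.32 ± 0.17 at 32 hr (adjusted p = 0.00031 by edgeR). The Zfp128, Zfp160, Zfp707 and Zfp982 names were added after the values were seen, to complete the 6.

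Among members without KRAB, 20 rose at 24 hr and 7 fell. Zfp521, a regulator of progenitor cells, had 2.53, 9.87, 14.1 and 22.2 CPM in 2i and 1.44, 15.6, 17.9 and 19.2 CPM with vitC. It rose in both treatments, by 2.98 ± 0.35 on the log2 scale at 24 hr (adjusted p = 0.00023 by edgeR). Zfp608, a relative of Zfp609, had 6.32, 10.5, 21.6 and 26.8 CPM in 2i and 4.33, 18.2, 30.5 and 21.5 CPM with vitC (2.26 ± 0.32, adjusted p = 0.00075 by edgeR). Zfp703 rose by 3.29 ± 0.53 (adjusted p = 0.0016 by edgeR) and Zfp609 by 1.64 ± 0.35 (adjusted p = 0.0071 by edgeR). Their 24 hr values were further above 4 hr with vitC than without. Zfp516 had 37.9, 66.6, 78.4 and 108 CPM in 2i and 43.0, 73.9, 86.9 and 119.8 CPM with vitC, with each later value above the one before it in both treatments (1.06 ± 0.14 at 24 hr, adjusted p = 0.00040 by edgeR). Zfp414 and Zfp827 also passed, by 1.25 ± 0.39 and 1.23 ± 0.23. Zfp319, whose CG-dense promoter is printed and which was named after its values were seen, had 7.01, 17.3, 16.9 and 18.9 CPM in 2i and 11.2, 18.4, 19.1 and 19 CPM with vitC, with both 4 hr values below all later ones (1.04 ± 0.23, adjusted p = 0.0086 by edgeR). The Zfp503 gene, a relative of Zfp703 that was left out by name, had 0.919, 8.30, 10.9 and 17.3 CPM in 2i and 0.608, 9.04, 14.3 and 11.5 CPM with vitC, and rose by 4.01 ± 0.38 (adjusted p = 5.9e-05 by edgeR).

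Of the members that fell, Zfp771 had 24.2, 13.3, 10.4 and 24.6 CPM in 2i and 22.1, 9.18, 9.68 and 18.9 CPM with vitC. It was lower at 16 and 24 hr and near its 4 hr level again at 32 hr (-1.19 ± 0.22 at 24 hr, adjusted p = 0.0030; -0.09 at 32 hr, adjusted p = 0.76, both by edgeR). Zfp365 had 48.8, 26.7, 26.4 and 19.3 CPM in 2i and 65.5, 29.1, 22.3 and 18.8 CPM with vitC, and fell further to 32 hr (-1.18 ± 0.19 at 24 hr, adjusted p = 0.0016 by edgeR). Zfp428 had 105, 64.9, 50.2 and 47.3 CPM in 2i and 92.3, 49.6, 41.0 and 47.2 CPM with vitC (-1.08 ± 0.15, adjusted p = 0.00057 by edgeR). Zfp956 had 18.1, 12.5, 8.27 and 10.1 CPM in 2i and 16.0, 8.18, 7.99 and 9.08 CPM with vitC (-1.06 ± 0.24, adjusted p = 0.010 by edgeR). For Zfp365, Zfp428 and Zfp956 both 4 hr values were above all later ones.

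**Figure D4:**
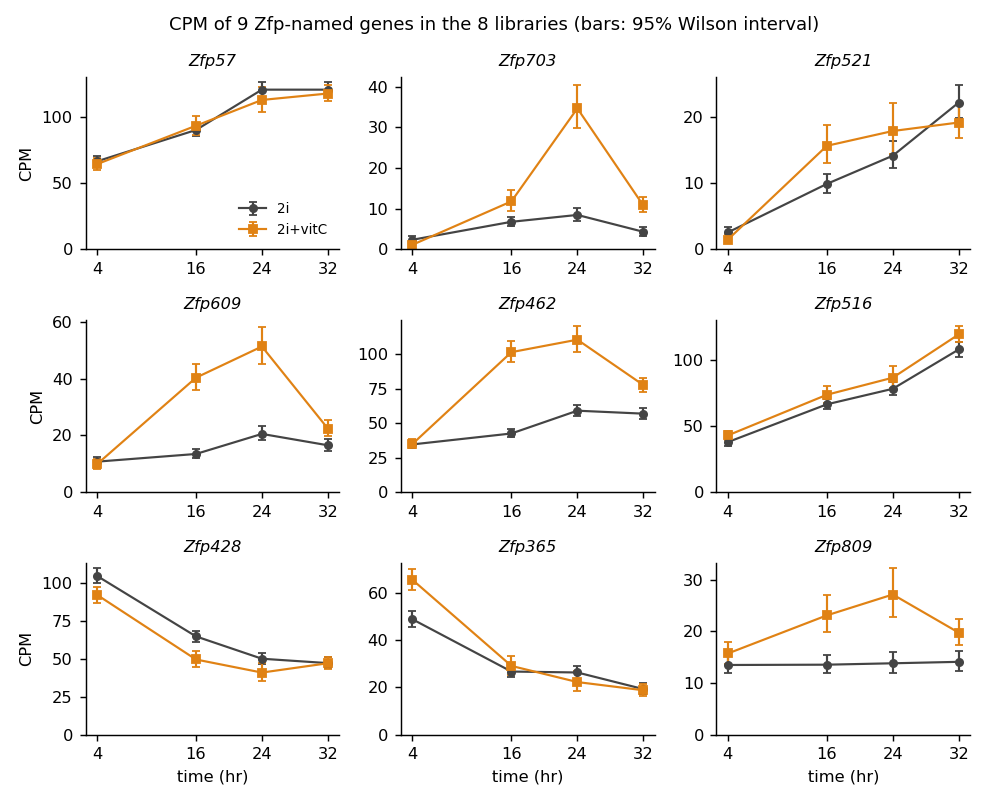
CPM (vertical axis) at 4, 16, 24 and 32 hr (horizontal axis) for 9 named members, 1 point per library, with 2i and 2i+vitC as separate lines and bars for the 95% Wilson interval of each count. Zfp57 goes from 66.4 to 121 CPM in 2i with vitC close beside it, and Zfp809 stays at 13.5 to 14.1 CPM in 2i but reaches 27.1 CPM with vitC.

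Of 14 listed chromatin and transcription partners, 5 rose at 24 hr (Zfp592, Zfp687, Zfp384, Zfp217 and Zfp462) and 0 fell, against 11.5% up and 8.98% down over all genes. Without the treatment term Zfp592, Zfp384 and Zfp462 did not pass. Zfp217, a partner of the CoREST complex, had 65.0, 108, 119 and 116 CPM in 2i and 78.9, 98.7, 122 and 130.2 CPM with vitC (0.77 ± 0.14, adjusted p = 0.0027 by edgeR). Zfp592, which works with the chromatin reader Zmynd8, had 21.9, 32.9, 30.8 and 24.2 CPM in 2i and 24.2, 40.2, 50.3 and 32.0 CPM with vitC (0.79 ± 0.19, adjusted p = 0.012 by edgeR). Zfp687, its partner in the same complex, rose less (0.49 ± 0.15, adjusted p = 0.033 by edgeR, and 0.17 with the GC and length correction), and Zfp384 likewise (0.71 ± 0.23, adjusted p = 0.047, and 0.11 with that correction). Of the 11 members that act on RNA, ribosomes or ubiquitin, 0 passed at 24 hr by edgeR, where 20.5% of all genes did. At an unadjusted p under 0.05 there were 5 of the 11, where 34.5% of all genes were. Zfp622, which helps build the large ribosomal subunit, had 151, 83.5, 117 and 99.4 CPM in 2i and 145, 101, 89.6 and 102 CPM with vitC. It passed at 16 hr (-0.70, adjusted p = 0.014) and 32 hr (-0.56, adjusted p = 0.025, both by edgeR). Both comparisons cross lanes, and within a lane at 24 hr it did not pass (-0.49).

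Sequence features that the rule did not use are given for the called members, with no test. The exon sequence had a median of 6926 bases for the 23 that rose, 4349 for the 10 that fell and 4521 for the other 239. The GC content was 51.9, 47.3 and 43.2%, and the promoters that were matched held a median of 19, 16 and 14 CG. At 32 hr against 4 hr the 27 that rose had a median of 6139 bases, 51.7% GC and 18 CG, the 19 that fell had 6271 bases, 41.5% GC and 12.5 CG, and the other 226 had 4471 bases, 43.4% GC and 14 CG. The members that fell therefore stood on different sides of those that did not pass at these times. Among members with KRAB, 4 of 45 with fewer than 10 fingers and 2 of 109 with more passed, and without KRAB 18 of 73 and 9 of 45, where 20.5% of all genes did.

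**Figure D5:**
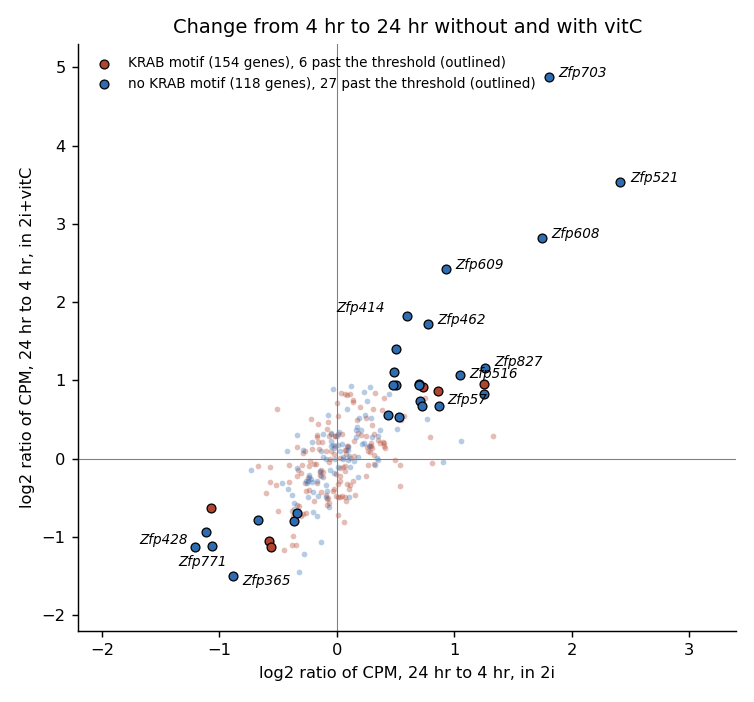
Log2 ratio of CPM at 24 hr to CPM at 4 hr for each member in 2i (horizontal axis) and with vitC (vertical axis), with members with and without KRAB in separate colours and those that passed the edgeR test outlined. Signs are shared by 201 of 272 members, and 27 of the 33 outlined points are members without KRAB.

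The other time comparisons gave different counts and medians. With the 5 genes left out by name put back, the counts against 4 hr given below become 31 at 16 hr and 50 at 32 hr. At 16 hr against 4 hr, 27 members passed (15 up, 12 down, 5 with KRAB, against 16.4% of all genes, 9.16% up and 7.24% down). The median was -0.069, against 0.0060 over all genes. With the GC and length correction 28 passed (10 up, 18 down), and the median was -0.080, against -0.044 over all genes. The correction thus moved all genes down as well, as it did at 24 hr (9.32% up, 11.4% down). The share of all genes called with it at 16 hr is not given here. At 32 hr against 4 hr, 46 passed (27 up, 19 down, 16 with KRAB, against 25.3%, 13.5% up and 11.8% down), and the median was -0.057. This median was 0.035 without the 2i+vitC library at 32 hr and -0.139 without the 2i library at 32 hr, so its sign rests on 1 library. From 16 to 32 hr within the other lane, 1 member passed, Zfp516, by 0.72 ± 0.13 (adjusted p = 0.034 by edgeR), where 0.583% of all genes did (0.335% up, 0.248% down). The median of that step was 0.040 over both treatments, 0.130 in 2i and -0.064 with vitC, and it was -0.070 without the 2i library at 32 hr and -0.011 without the 2i library at 16 hr.

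The calls against 4 hr were made where the share of counts at Lars2 also moved. With the log2 of that share as a covariate, 0 members passed by edgeR at 24 hr (13 at an unadjusted p under 0.05, and 0% of all genes passed), 0 at 16 hr and 1 at 32 hr. For 16 and 32 hr the percent of all genes that passed with this covariate is not given here. Fewer members passed at 24 hr without the 2i+vitC library at 24 hr or at 4 hr, where the class median was -0.014 and 0.032. How many of all genes passed in those fits is not given either. The Lars2 share was 0.028% in 2i and 0.011% with vitC at 4 hr, against 5.92 and 6.37% at 24 hr. It moved together with time, so the fit with this covariate cannot separate the share from time. The part of the Lars2 share in the time calls was not tested.

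The KRAB co-repressor machinery was read from a list of 20 genes. At 24 hr 4 of the 20 passed (20%), 2 up and 2 down, a share near the 20.5% of all genes. Trim28, the partner of most KRAB proteins, had 1669, 1393, 979.7 and 1066 CPM at 4, 16, 24 and 32 hr in 2i and 1908, 911, 934 and 1173 CPM with vitC. Both 4 hr values were above all others, and it fell at 24 hr by 0.88 ± 0.18 on the log2 scale (adjusted p = 0.0051 by edgeR), as did Rbbp7, a histone-binding subunit, while Chd3 and Mta1 of the NuRD complex rose. Atf7ip, which stabilizes Setdb1, had 21.5, 23.7, 22.3 and 15.3 CPM in 2i and 37.2, 72.2, 69.4 and 44.1 CPM with vitC. Its groups did not overlap, and it was the 1 gene of the list called for vitC (1.39 ± 0.16, adjusted p = 0.0039 by edgeR).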

How the data were processed

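RNA-seq of E14 ESCs was available for 8 libraries, 1 for each of 4 times and 2 media. Per the labels, ribosomal RNA was depleted and TruSeq libraries were read as 50-base single ends. The authors deposited raw HTSeq counts for 37263 Ensembl genes, without normalization. The submitters' processing notes name GSNAP, HTSeq and NCBIM37/mm9. The strand setting is not given in the sources used here. Inhibitor concentrations differ in unit between labels (mM) and paper (µM).

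Symbols, exon lengths and GC content came from GENCODE M21, and the counts were matched to it by identifier alone (32604 matched). Exon lengths, neighbouring genes and groups of neighbours were taken from its coordinates. KRAB motifs and fingers were computed from its coding sequences. Promoters came from RefSeq GRCm38.p6.

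All 14931 genes that reached 1 CPM in 2 or more libraries were fitted over the 8 libraries in edgeR 4.0.16 (R 4.3.3) with TMM scaling, and p-values of the quasi-likelihood test were adjusted after Benjamini and Hochberg (threshold 0.05), in an additive model of time and treatment with 3 residual degrees of freedom, or 2 with an added linear term of vitC by hours. There are no replicate cultures. The SE printed with a log2 fold change is the size of that change divided by the square root of the F statistic of the quasi-likelihood test. Ratios at single times are differences of log2 CPM with a prior count of 2. The floor of 3 counts was 0.16 to 0.63 CPM. Intervals cover counting error only. The code was tested on simulated data.

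The members, the lists of functions and the comparisons were chosen with earlier results of these data known, and the omission of 5 genes from the class used such results. Named were members that passed for vitC, the 8 largest rises and 5 largest falls for vitC with the same sign at all 4 times, the 5 largest changes each way for 24 hr against 4 hr, the 3 largest for 32 hr against 16 hr, and the listed genes. Others are said to be chosen after their values were seen. DESeq2 1.42.0 was run as an alternative, as were other scalings and filters, a GC and length correction, thinned counts, the Lars2 share, models without a term, and omission of times. Omission of single libraries was chosen after seeing the data.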

Additional observations from a re-analysis of the deposited data

Results flagged for a closer look

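The median vitC log2 ratio over the class was -0.082 at 32 hr, against positive medians at 4, 16 and 24 hr. Apart from the class as a whole, both groups showed this sign change, with -0.128 at 32 hr for members with KRAB and -0.032 for members without. Corrected for GC and length, the medians without KRAB were -0.008 at 4 hr and -0.007 at 24 hr, so they were not positive at all of the earlier times for that group. Each time has 1 library in each medium, and the difference between the times was not tested for the medians. The 32 hr libraries share a lane with the 16 hr libraries, where the class median was 0.103.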

How the results depend on the processing

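Under the alternatives, 172 of the 212 values recomputed stayed within 1.5 times a count, or moved a median by less than 1 SD of the class medians over the times (vitC) or over the media (time). Such small moves can still turn a sign. The median for 32 hr against 16 hr (0.040) was -0.070 to 0.119 with omissions and below 0 without the 2i 16 hr or the 2i 32 hr library, and that for 32 hr against 4 hr (-0.057) was -0.139 to 0.035 and above 0 without the 2i+vitC 32 hr library. The vitC median (0.038) was 0.0098 to 0.101 with a time point left out. The number of members called for vitC, 0, became 9 without a filter on low counts, 2 with DESeq2, 1 with the 5 genes put back (Zfp951) and 0 to 5 with a time point left out (5 without 4 hr). For 24 hr against 4 hr the count of 33 became 0 with the Lars2 share as a covariate and 20 without the treatment term, and was 10 to 32 with a time point or library left out, with 10 without the 2i+vitC 24 hr and 13 without the 2i+vitC 4 hr library. The median of 0.032 became 0.0053 with library totals, -0.016 with the GC and length correction, 0.045 with the Lars2 share and 0.050 with a minimum of 1 CPM, and was -0.014 to 0.055 with a time point or library left out. For 16 hr against 4 hr the count of 27 became 0 with the Lars2 share and 10 without the treatment term, and was 6 to 21 with omissions, with 6 without the 2i+vitC 4 hr library, 12 without either 16 hr library, 14 and 15 without the 2i and the 2i+vitC 32 hr library, 15 without both and 16 without the 2i 4 hr library. Its median was -0.117 to -0.012 there. For 32 hr against 4 hr the count of 46 became 1 with the Lars2 share and was 16 to 47 with omissions, with 16 without the 2i+vitC 4 hr library, 17 without the 2i+vitC 32 hr library and 19 without the 2i 32 hr library. The 1 member from 16 to 32 hr became 7 without a filter, 3 with DESeq2, 0 without the treatment term and 0 to 1 with omissions, with 1 left after the omission of the 4 hr pair or either 4 hr library. Fewer samples entered each omission, and the cause of the other changes was not tested. For most of these counts the share of all genes called is not given. They therefore do not show whether the members lost more calls than other genes did. The vitC fit pairs the media by time, and without that block 0 members passed and the median was 0.048. No paired analysis by replicate number was possible because each group is 1 library. The smallest library, 2i+vitC at 24 hr, limits the precision of members near 5 CPM.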

Other observations

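The zinc finger genes of other names, 52 Zbtb, Zkscan and Zscan genes, gave 8 calls for 24 hr against 4 hr (15.4%), all of them rises, where 20.5% of all genes were called and 11.5% rose. Their median vitC ratios were 0.082, 0.063, 0.0063 and 0.032 at 4, 16, 24 and 32 hr, with the 32 hr value above 0 where that of the Zfp members was below it. The difference between these groups was not tested.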
